A study of Canis lupus familiaris with 30 samples.

Results

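The neurotrophin receptors NTRK2, NTRK3, NGFR and SORT1 and the ligands BDNF and NTF3 were followed across 30 primary thyroid carcinomas of dogs, 25 follicular (FTC) and 5 medullary (MTC). The 6 genes were chosen by symbol and not by their values, and each matched a row of the 30424 genes in the count table. RNA was extracted with TRIzol from tumor tissue and sequenced as total RNA depleted of ribosomal RNA, without a stated treatment, and no normal thyroid was analysed here. FTC arise from thyrocytes, which make thyroglobulin, and MTC from C cells, which make calcitonin. The labels give no tumor class, so the class of each tumor was taken from the study's clinicopathologic list through the tumor name. In that list the class follows calcitonin protein or transcript, and for TC1020 it rests on the transcript, so the classes are not fully independent of these RNA data.

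Neurotrophins are secreted growth factors that are made as longer proforms. The cleaved ligands bind Trk receptor tyrosine kinases, BDNF chiefly TRKB (the product of NTRK2) and neurotrophin-3 (the product of NTF3) chiefly TRKC (the product of NTRK3), and signal to RAS-ERK, PI3K and phospholipase C gamma. The proforms prefer the p75 receptor (the product of NGFR) together with sortilin (the product of SORT1), which also sorts proteins between the Golgi apparatus and endosomes. The system is best known from neurons and from cells of the neural crest, and p75 is also made by Schwann cells, some fibroblasts and some perivascular cells.

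NTRK2 stood higher in MTC than in most FTC, and NTRK3 and NTF3 were most abundant in single FTC. BDNF was close to the limit of detection, and SORT1 was abundant in both classes and even in FTC. None of the 6 genes was called different between the classes. A gene was called at an adjusted p below 0.05 in edgeR's quasi-likelihood test (Benjamini-Hochberg over 18622 genes) and an absolute log2 fold change above 2, in 24 FTC against 5 MTC. Over all genes, 4.36% were higher in FTC by this rule and 7.49% were higher in MTC, beside 0 of the 6 members in either direction. At an unadjusted p below 0.05, 1 of 6 members passed with edgeR and 2 with DESeq2, which also called 0, against 33.2% of all genes with edgeR. An exact permutation test called 1 member, NTRK2. TC1088 was left out of the test because the study set it apart after inspecting expression, and it is included in the levels of the 25 FTC. The 5 MTC are a small group, and in bulk tissue fewer cells of a type and less RNA per cell cannot be told apart.

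The depth was 12288945 to 45148677 gene counts per tumor. Values are normalized counts, the count divided by the tumor's size factor, and a level is log2 of the normalized count plus 1. Size factors ranged from 0.279 in TC538 to 1.62 in TC1218. All 8 C-cell markers tested were called higher in MTC, and 7 of 8 follicular markers were called higher in FTC. CALCA, the calcitonin gene, had a median normalized count of 224800 in MTC but 121.7 in TC2289, near the FTC median of 99.95, and CALCB in TC2289, at 354.9, was the lowest of the MTC. The FTC TC22 exceeded TC2289 in both, with CALCA at 7657 and CALCB at 402.9, against an FTC median of 0 for CALCB. TC1088 had the lowest summed follicular markers of the FTC, 247.1 against an FTC median of 644900, with TG (thyroglobulin) at 11.96.

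**Figure D1:**
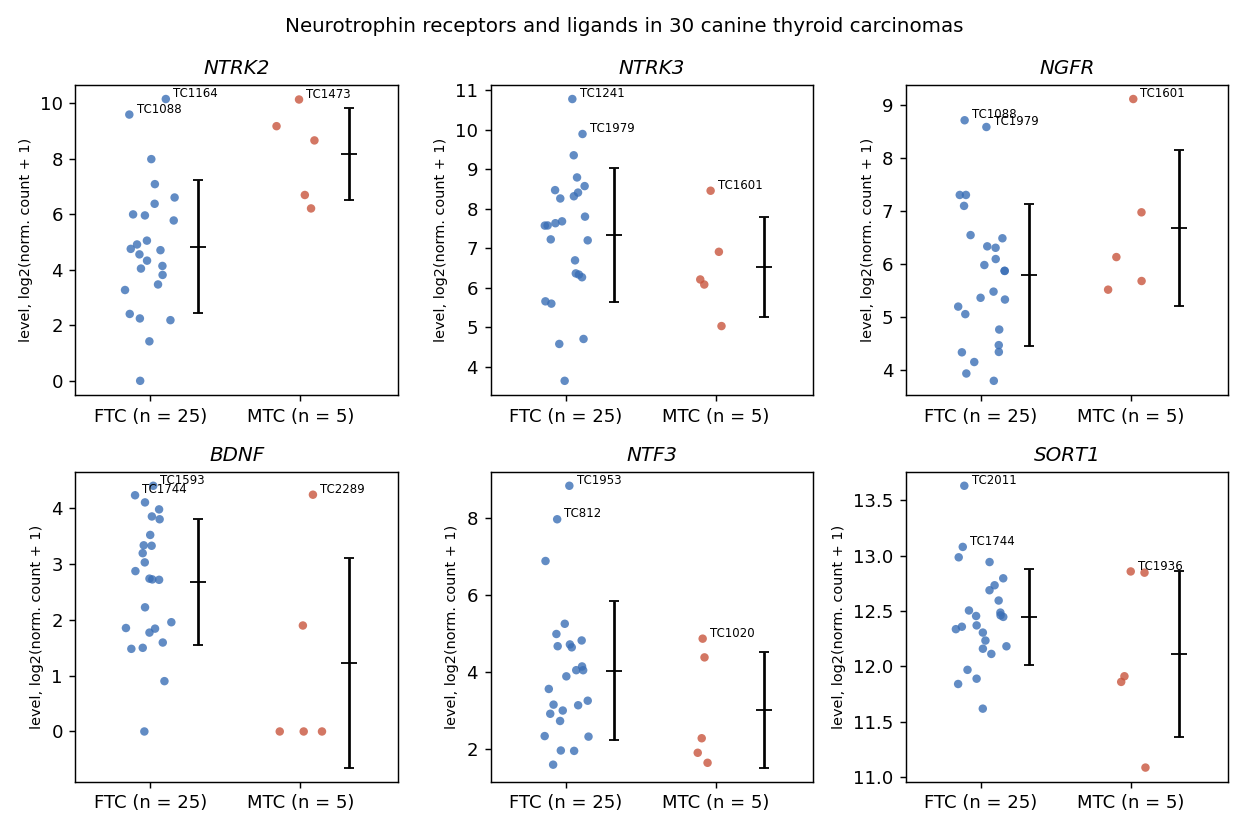
Level, log2(normalized count + 1), of each gene in 25 FTC (blue) and 5 MTC (red), one point per tumor, with a black bar for the mean and SD, a different vertical range in each panel, and the highest tumors named. The 5 MTC lie above the FTC median for NTRK2, and the classes overlap for all 6 genes.

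NTRK2 (ENSCAFG00000001380) encodes TRKB, the receptor of BDNF and neurotrophin-4. Its normalized count in MTC was 102.5 in TC1020, 1123 in TC1473, 403.4 in TC1601, 576.3 in TC1936 and 73.02 in TC2289. In FTC it ran from 0 in TC812 through a median of 25.09 to 1136 in TC1164. All 5 MTC were above the FTC median and 19 of 25 FTC were below every MTC, but 6 FTC exceeded the lowest MTC and 1, TC1164, exceeded the highest. TC1164 and TC1088 (770.2) together held 66.2% of the summed normalized counts of the 25 FTC.

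The mean NTRK2 level of the 25 FTC was 4.83 ± 2.38 (SD, n = 25) and that of the 5 MTC 8.17 ± 1.67 (SD, n = 5). The log2 fold change, FTC minus MTC, was -2.37 (SE 0.92, 95% interval -4.24 to -0.50, edgeR adjusted p = 0.0622), so NTRK2 was not called. The value depended on single tumors. Without TC1164 it was -3.44 (edgeR adjusted p = 0.000555), past the threshold, and without TC1473 it was -1.74 (edgeR adjusted p = 0.261). Adding TC1088 gave -1.98 (edgeR adjusted p = 0.160). A two-sided exact permutation test of the mean level found -3.54 (adjusted p = 0.0167). NTRK2 was past the threshold in 2 of 37 alternatives.

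NTRK3 (ENSCAFG00000011457) encodes TRKC, the receptor of neurotrophin-3. In MTC its normalized count was 66.74 in TC1020, 119.2 in TC1473, 349.3 in TC1601, 31.73 in TC1936 and 73.02 in TC2289. In FTC it ran from 11.54 in TC640 through a median of 189.7 to 1746 in TC1241, and TC1979 followed at 945.7. The direction of the means was opposite to that of NTRK2, with 4 of 5 MTC below the FTC median and 6 FTC above the highest MTC, TC1601. The mean level of the 25 FTC was 7.33 ± 1.69 (SD, n = 25) and that of the 5 MTC 6.54 ± 1.26 (SD, n = 5). The log2 fold change was 1.25 (SE 0.79, 95% interval -0.36 to 2.86, edgeR adjusted p = 0.282), and without TC1601 it was 2.09 (edgeR adjusted p = 0.102).

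NGFR (ENSCAFG00000016934) encodes p75, which binds all neurotrophins and their proforms. In MTC its normalized count was 50.3 in TC1020, 69.13 in TC1473, 551 in TC1601, 124.8 in TC1936 and 44.84 in TC2289. In FTC it ran from 12.94 in TC1164 through a median of 57.48 to 417.5 in TC1088, with TC1979 next at 382.3. TC1601 alone exceeded every FTC, and the other 4 MTC lay within the FTC range. The mean level of the 25 FTC was 5.79 ± 1.34 (SD, n = 25) and that of the 5 MTC 6.68 ± 1.47 (SD, n = 5), and the log2 fold change was -1.19 (SE 0.59, 95% interval -2.40 to 0.02, edgeR adjusted p = 0.157). This value rested on TC1601, without which it was 0.04 (edgeR adjusted p = 0.976). Without TC1979 it was -1.50 (edgeR adjusted p = 0.0348), within the fold change limit.

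TC1601 also differed from the other MTC in its stromal markers. Its summed fibroblast markers were 332700 against an MTC median of 51590, and its summed mural markers were 47780 against 16010, each the highest of the 5. Its summed follicular markers, 224900, were also the highest of the MTC. COL1A1, DCN and PDGFRA, which define fibroblasts in the list, and ACTA2, which marks mural cells, were also highest there, whereas RGS5 was highest in TC1473. SOX10, a Schwann cell marker, was 153.6 in TC1601, the highest of the MTC, but the summed Schwann cell markers were highest in TC1473, at 12970. The part of these cells in the NGFR value was not tested.

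SORT1 (ENSCAFG00000019835) encodes sortilin, the co-receptor of p75 for the proforms. In MTC its normalized count was 3713 in TC1020, 3846 in TC1473, 7369 in TC1601, 7422 in TC1936 and 2170 in TC2289. In FTC it ran from 3141 in TC1088 through a median of 5581 to 12700 in TC2011, a 4.04-fold range. TC2289 was below every FTC, and the other MTC lay within their range. The mean level of the 25 FTC was 12.4 ± 0.44 (SD, n = 25) and that of the 5 MTC 12.1 ± 0.75 (SD, n = 5), with a log2 fold change of 0.29 (SE 0.26, 95% interval -0.25 to 0.82, edgeR adjusted p = 0.489). That interval lies within the fold change limit.

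BDNF (ENSCAFG00000010207) encodes brain-derived neurotrophic factor, the ligand of TRKB. In MTC 3 of 5 tumors, TC1020, TC1601 and TC1936, had a count of 0, which allows up to 3 counts, TC1473 had 3 counts and TC2289 had 14. In FTC the count ran from 0 in TC627 through a median of 7 to 24, and 11 of 25 FTC had 3 counts or fewer. The highest normalized count in FTC was 20.16 in TC1593, beside 17.93 in TC2289. BDNF was thus at or near the limit of detection in 4 of 5 MTC, and the MTC mean depended on TC2289. The log2 fold change was 0.85 (SE 0.81, 95% interval -0.79 to 2.49, edgeR adjusted p = 0.504). Without TC2289 it was 3.16 (edgeR adjusted p = 0.0233), past the threshold, the 1 of 36 alternatives in which BDNF was called. That value compares the FTC with 4 MTC holding 3 counts in TC1473 and 0 in the others, and its size depends on how the model treats zeros.

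NTF3 (ENSCAFG00000015278) encodes neurotrophin-3, the ligand of TRKC. In MTC its count was 29 in TC1020, 3 in TC1473, 23 in TC1601, 2 in TC1936 and 3 in TC2289. In FTC the normalized count ran from 2.01 in TC1241 through a median of 13.74 to 453.1 in TC1953, followed by TC812 at 247.6. TC1953 and TC812 held 62.8% of the summed normalized counts of the FTC, and 5 FTC exceeded the highest MTC. The log2 fold change was 2.05 (SE 1.15, 95% interval -0.30 to 4.39, edgeR adjusted p = 0.219). The value moved with single tumors and with the test, from 2.68 without TC1020 to 1.35 without TC1953 and 0.73 without both TC1953 and TC812 (edgeR adjusted p = 0.188, 0.337 and 0.539). DESeq2 gave 1.31 (adjusted p = 0.241) and the exact permutation test 1.09 (adjusted p = 0.428).

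**Figure D2:**
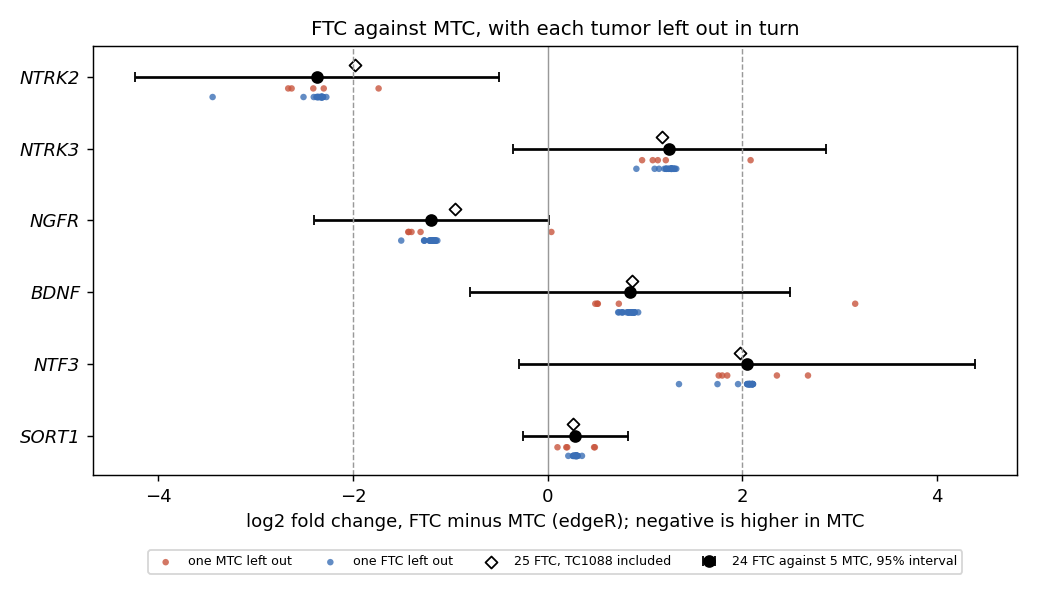
Log2 fold change, FTC minus MTC, by edgeR for each gene (black, with 95% interval, 24 FTC and 5 MTC), with TC1088 included (open diamond) and with each MTC (red) or FTC (blue) left out. Only NTRK2 has an interval that does not reach 0, dashed lines mark the fold change limit of 2, and the red point nearest 0 for NGFR is the fit without TC1601.

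Within FTC the 6 genes differed widely in spread. The SD of the NTRK2 level over 25 FTC was 2.38, larger than that of 97.4% of 18106 genes, whose median SD was 0.869. NTF3 (91.7%), NTRK3 (89.7%) and NGFR (81.0%) were also in the upper part, BDNF (71.3%) was less so, and SORT1 at 0.44 exceeded only 5.7% of genes. SD on this scale also depends on the count, with low counts adding sampling noise.

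The tumors with extreme values were not the same from gene to gene. TC1164 had the highest NTRK2 and the lowest NGFR of the FTC. TC1241 had the highest NTRK3 and the lowest NTF3, and TC812 had the second highest NTF3 and no NTRK2 count. TC1088 ranked first for NGFR and second for NTRK2, and 24 and 25 of 25 for NTRK3 and SORT1. TC1953, first for NTF3, ranked 22 for NTRK3.

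**Figure D3:**
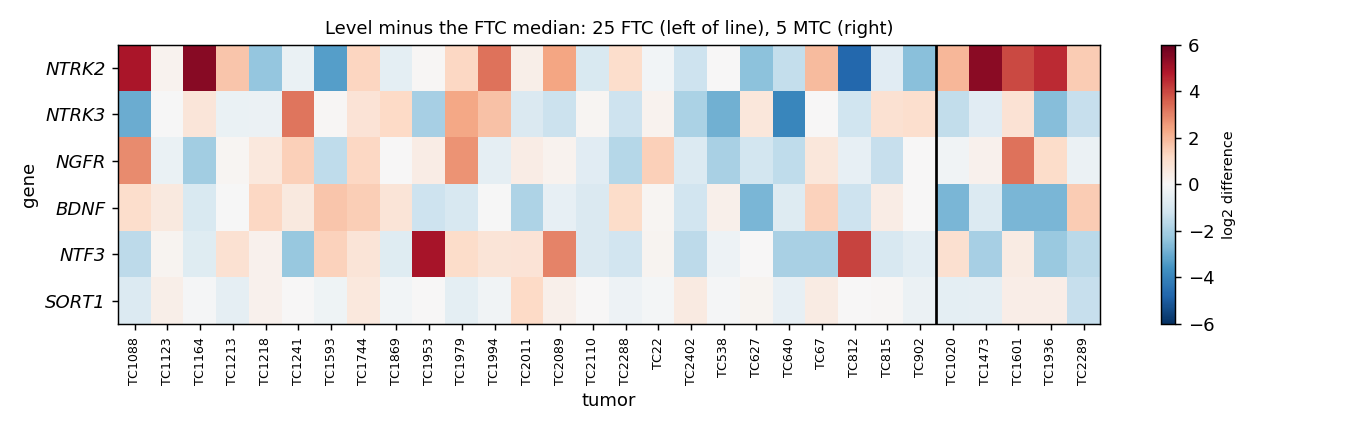
Level of each gene minus its median over the 25 FTC, by tumor, on a log2 color scale (red higher, blue lower), with FTC left and MTC right of the black line. NTRK2 is above its FTC median in all 5 MTC, SORT1 is pale throughout, and the deepest colors of the other genes fall in different tumors.

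Over 25 FTC, none of the 63 relations examined passed an adjusted p of 0.05 by Pearson's r or Spearman's rho (100000 permutations, Benjamini-Hochberg over the 63). They were the 15 pairs of members and the 6 members against the thyroid differentiation score (TDS), a MAPK pathway activity score (MPAS) and 6 marker lists. No receptor varied together with its ligand or co-receptor to a degree detectable here. BDNF had 3 counts or fewer in 11 of 25 FTC, so counting noise could hide a relation with NTRK2. NTRK2 and BDNF had r = 0.15 (permutation p = 0.473) and rho = 0.11 (permutation p = 0.609), with r = 0.18 without TC1164 and TC1088. NTRK3 and NTF3 had r = -0.10 (permutation p = 0.645) and rho = -0.03 (permutation p = 0.896), with r = -0.12 without the 2 farthest tumors. NGFR and SORT1 had r = -0.08 (permutation p = 0.712) and rho = 0.08 (permutation p = 0.710), with r = 0.37 without the 2 farthest tumors.

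**Figure D4:**
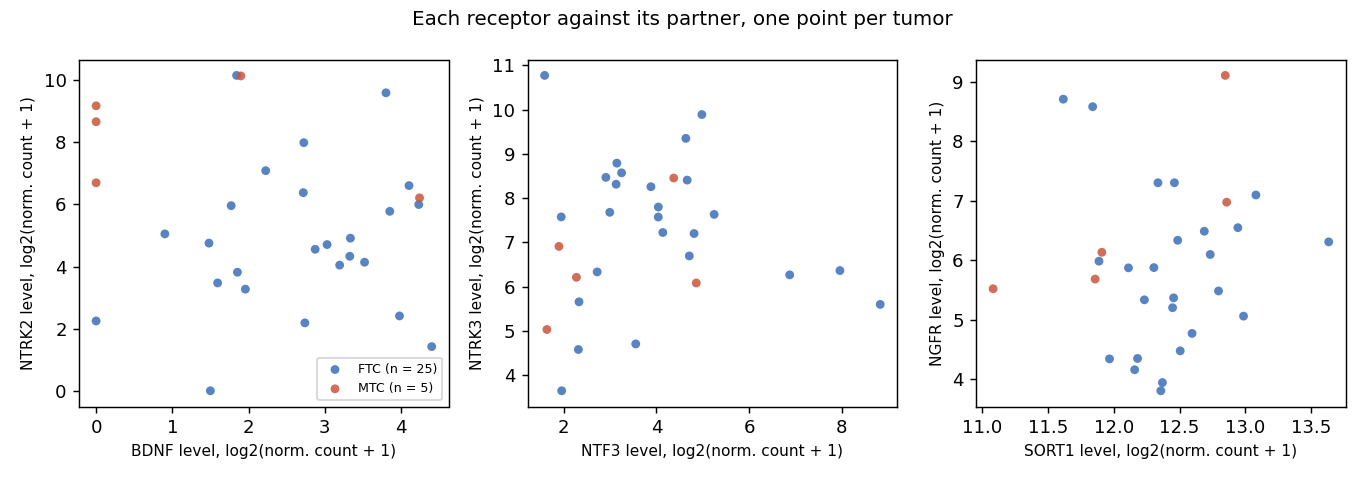
Receptor level against the level of its ligand or co-receptor, one point per tumor, 25 FTC (blue) and 5 MTC (red), axes in log2(normalized count + 1). No trend is visible in FTC, and 3 MTC with NTRK2 reads lie at a BDNF count of 0.

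By rho, the pair of relations nearest the threshold concerned NGFR. NGFR and the endothelial marker list had rho = 0.59 (permutation p = 0.00203, adjusted 0.128) and r = 0.39 (permutation p = 0.0577, adjusted 0.584), with r = 0.70 without TC538 and TC1088. NGFR and MPAS had rho = 0.55 (permutation p = 0.00498, adjusted 0.128) and r = 0.59 (permutation p = 0.00225, adjusted 0.0709), with r = 0.52 without the 2 farthest tumors. By r, NTRK3 and the endothelial list came equally near (r = 0.60, permutation p = 0.00180, adjusted 0.0709), with rho = 0.44 (permutation p = 0.0298, adjusted 0.295) and r = 0.43 without TC538 and TC1088. The relations of NGFR with the endothelial and mural lists depended on TC1088, which had high NGFR and low endothelial and mural markers. Over the 24 FTC without it, NGFR rose with the endothelial list (rho = 0.78, permutation adjusted p = 0.00126, and r = 0.73, permutation adjusted p = 0.00315) and, by rho alone, with the mural list (rho = 0.66, permutation adjusted p = 0.0195, and r = 0.60, permutation adjusted p = 0.0575). For NGFR and MPAS, r was 0.53 (permutation adjusted p = 0.107) without it. NGFR and the Schwann cell list had rho = -0.07 (permutation p = 0.726) and r = -0.12 (permutation p = 0.565) over 25 FTC. Among the other members, NTF3 and the mural list had rho = 0.54 (permutation p = 0.00611, adjusted 0.128), and r fell from 0.37 to 0.26 without the 2 farthest tumors.

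The genes most like each member across 25 FTC were ranked by Spearman's rho among 13308 genes with a symbol, as a description. NTRK2 was followed by ALDH1A3 (rho 0.742), a retinaldehyde dehydrogenase, ABCC3 (0.741), an export pump, and RUNX1 (0.735), a transcription factor. NTRK3 was followed by HK1 (0.796), a hexokinase, EHD3 (0.783) and SRXN1 (0.754). NGFR was followed by PAMR1 (0.825), EEF2 (0.817), a translation elongation factor, and FLT4 (0.815), the VEGF receptor of lymphatic endothelium. BDNF was followed by SFMBT2 (0.650), LGI3 (0.645) and RAB39B (0.641), NTF3 by DLX5 (0.765), PTGES (0.733) and MMP11 (0.731), and SORT1 by EMC7 (0.676), TANGO2 (0.672) and PKDREJ (0.649). Being the top of 13308 comparisons each, these values carry no test.

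NTF4, which encodes neurotrophin-4, another ligand of TRKB, was not called, with a log2 fold change of 1.66 (edgeR adjusted p = 0.122). NTF4 was highest in TC1088, at 324.8, against an FTC median of 29.78.

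Other genes of the pathway were described in 4 lists. All called genes of these lists were higher in MTC, and medians lay near the 0.002 of all genes. Beside the counts below, 7.49% of all genes were called higher in MTC and 4.36% higher in FTC. Of 12 genes of the sortilin family and of neurotrophin cleavage, 1 was called (list median 0.21), the sortilin relative SORCS3 at -5.41 (edgeR adjusted p = 0.000179). It was at 876.2 or more in every MTC and at 758.8 or less in every FTC, unlike SORT1. How many of all genes separate the classes in this way was not counted. Of 18 p75 partners, 1 was called (list median -0.05), the Nogo receptor partner LINGO1 at -4.47 (edgeR adjusted p = 0.00191), which had no count in TC1936, overlapped between the classes and was not called in the exact permutation test (adjusted p = 0.0948).

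Of 33 adaptors and regulators of Trk receptors, 4 were called (list median 0.15), beside 7.49% of all genes higher in MTC. LINGO1 stood in this list too. The adaptor SHC3 (-3.90, edgeR adjusted p = 0.000184) was 397.3 in TC1164, the FTC with the most NTRK2, and at 291.9 or more in every MTC. The docking protein GAB2 (-2.33, edgeR adjusted p = 2.01e-08) did not overlap between classes, with 2612 or more in MTC and 2460 or less in FTC. As for SORCS3, the share of all genes without overlap was not counted. The receptor phosphatase PTPRO (-3.51, edgeR adjusted p = 1.73e-06) overlapped, and its value rested on TC1020, without which it was no longer called (edgeR adjusted p = 0.0935). The study describes SHC3 and GAB2 with the signaling of another receptor tyrosine kinase, RET, as raised in MTC. RET was also called higher in MTC here (-6.34, edgeR adjusted p = 6.25e-11). The part of each receptor was not tested.

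Of 19 genes known to respond to neurotrophins, 4 were called (list median -0.11), beside 7.49% of all genes higher in MTC. The 4 were the granin SCG2 (-11.78, edgeR adjusted p = 5.06e-10), somatostatin SST (-7.72, edgeR adjusted p = 6.89e-05), the neuropeptide precursor VGF (-4.94, edgeR adjusted p = 0.000262) and synapsin SYN1 (-4.50, edgeR adjusted p = 1.99e-15). SCG2 stood in the C-cell marker list too. Whether these calls have to do with neurotrophins was not tested. The other 15 were not called, among them the immediate early genes FOS and EGR1 and the synaptic genes NPTX2 (-0.02, edgeR adjusted p = 0.992) and HOMER1 (0.02, edgeR adjusted p = 0.985). VGF reached 4716 in TC1164, its highest FTC, but was at its FTC lowest, 2.989, in TC1088, which had the second most NTRK2. Relations of SHC3 or VGF to NTRK2 were not tested. GAB2 and SYN1 were named for the small number of calls in their lists after their values were seen.

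**Figure D5:**
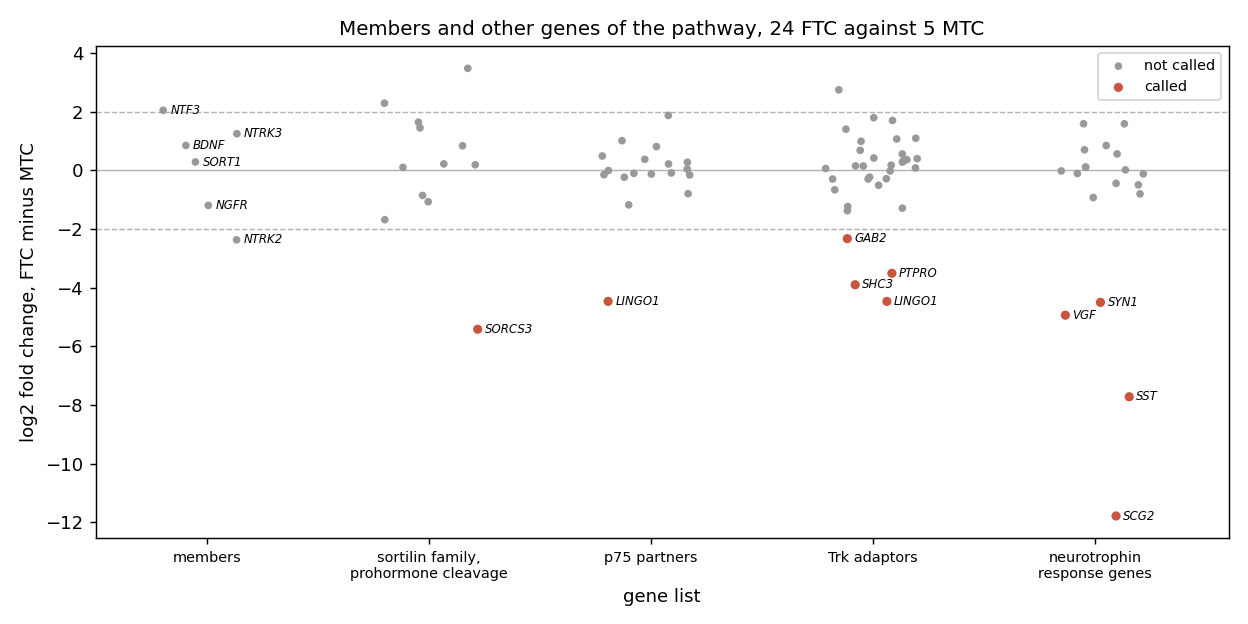
Log2 fold change, FTC minus MTC (24 FTC, 5 MTC, edgeR), of the 6 members and of the genes of 4 pathway lists, one point per gene, called genes in red. Every called gene lies below 0 (higher in MTC), LINGO1 appears in 2 lists, and dashed lines mark the fold change limit of 2.

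Markers of cells that carry neurotrophin receptors in normal tissue differed between the classes in part. Over all genes, 7.49% were called higher in MTC and 4.36% higher in FTC. Of 8 neuronal markers tested, 4 were called higher in MTC, among them RBFOX3 and PRPH, and the summed list was 252.7 to 7017 in MTC and 39.98 to 2934 in FTC. Of 8 Schwann cell markers tested, 2 were called higher in MTC and 1, SOX10, higher in FTC, and CDH19 had a median of 3 counts or fewer in both classes. The Schwann sum was 1054 to 12970 in MTC and 1179 to 10630 in FTC. Of 10 fibroblast markers 2 were called higher in MTC, and of 8 mural and 7 endothelial markers 0 were called. The part of these cells in the levels of the members was not tested.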

How the data were processed

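The labels name 30 tumors without a class. FTC and MTC were assigned from the study's clinicopathologic list through the tumor name in the labels, so this grouping does not come from the labels themselves. Using STAR and the CanFam3.1 build, the authors aligned the read pairs, and the deposited values are unnormalized counts for each Ensembl gene, in 1 table with 0 columns of no sample. The strand setting of the counting is not given in the sources used here, so reads of overlapping antisense genes cannot be told apart. Each tumor gave 1 library.

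The count test was the quasi-likelihood test of edgeR 4.0.16 (R 4.3.3) after TMM scaling, for genes reaching 10 counts in 5 or more tumors. Levels used median-of-ratios size factors and a pseudocount of 1. Python 3.11.15, numpy 2.4.6, scipy 1.17.1 and pandas 2.3.3 gave permutation tests and correlations, and matplotlib 3.10.9 the figures. The exact test ran over 118755 splits. On simulated counts of this comparison edgeR recovered 192 of 200 genes changed by 4 on the log2 scale, with 4 false calls over 18442 genes. The changed genes were drawn only from genes with an expected count above 50. That recovery therefore does not cover genes with few counts, such as BDNF, or smaller changes. TDS used 14 of its 16 genes and MPAS 10.

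The members were chosen by symbol and not by their values. The lists, the named genes and the tests were chosen with earlier results of these data known. Named genes were the members, up to 3 called genes in each direction of each pathway list, the 3 genes most like each member, and defining markers. Named outside this rule were GAB2, SYN1, RET, NTF4, CDH19, FOS, EGR1, NPTX2 and HOMER1. Marker lists also covered macrophages (0 of 7 called), lymphocytes (1 of 7 higher in MTC), parathyroid (1 of 2 higher in MTC) and skeletal muscle (1 of 6 higher in FTC). Alternatives were DESeq2 1.42.0, other scalings, filters, limits and pseudocounts, the exact test, TC1088 included, and leaving out each MTC or TC538. Leaving out each other FTC, TC812 with TC1953, and, for the relations, TC538 were added after seeing the data. Results of some listed genes are not reported here. No sequences were used here.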

Additional observations from a re-analysis of the deposited data

How the results depend on the processing

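The tumors carry 30 different sample numbers, which do not name the dog. The study counts each tumor as the case of a separate dog, so no paired analysis was made. None of the 6 members was called in the reported comparison, nor in 34 of 37 alternatives, and 1 was called in each of the other 3. These were NTRK2 without TC1164 (-3.44) and in the exact permutation test (-3.54), and BDNF without TC2289 (3.16). Leaving out single tumors moved the number of members called from 0 to 1, NTRK2 from -3.44 to -1.74, NGFR from -1.50 to 0.04, BDNF from 0.49 to 3.16, NTRK3 from 0.91 to 2.09, NTF3 from 1.35 to 2.68 and SORT1 from 0.10 to 0.49. NGFR reversed only without TC1601 (0.0393). NTRK3, NTF3 and SORT1 kept their direction and were not called in any alternative that tested them. With at least 50 counts required, BDNF and NTF3 were not tested. Genes called higher in FTC rose from 812 to 1524 without a fold change limit. Those called higher in MTC went from 1394 to 2967 without a count filter, to 878 with at least 50 counts, where fewer genes were tested, and to 2557 without a fold change limit. LINGO1 in the exact permutation test (adjusted p = 0.0948) and PTPRO in 2 alternatives were not called. Relations within FTC with an adjusted p below 0.05 went from 0 to 2 without TC1088. The cause was not tested. Few reads limit BDNF and, in MTC, NTF3, intervals from counts of 0 cover counting error only, and the group of 5 MTC limits every comparison.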
